A study of Mus musculus with 4 samples.

Results

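The Hedgehog and Notch signalling genes Ptch1, Gli1, Gli2, Gli3, Hhip, Notch1, Notch2, Notch3, Jag1 and Hes1 were followed in mouse embryonic fibroblasts (MEFs), cells grown out of dispersed embryos, that lacked cyclin G2 or both cyclins G1 and G2. Members were taken by name, as every non-control probe on the array that carries the name of one of these 10 genes. They had 14 probes among 39397 with a value on all 4 arrays. Ptch1, Hhip, Notch1 and Notch2 had 2 probes each and the other genes 1. Of the 14 probes, 10 were well above background on all 4 arrays, and these stood for 8 of the 10 genes, the exceptions being Gli1 and Hhip.

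Total RNA of MEFs from C57BL/6J mice, growing logarithmically in DMEM with serum, was hybridised to 4 single-color Agilent arrays, 1 per genotype. The labels name them G2KO (CycG2-/-), G2WT (CycG2+/+), G1G2KO (CycG1-/-CycG2-/-, called DKO here) and G1G2WT (CycG1+/+CycG2+/+). Per the methods, the MEFs came from mid-gestation embryos collected over a span of days, and each array stands for 1 preparation, so genotype, preparation and array cannot be told apart and no knockout array could be tested against its own WT array alone. The paper ascribes the raised Xist of its G2KO MEFs to their female origin, so sex may also differ between preparations. In the Ccng1 allele the exons of the reading frame are replaced by a neo cassette, and the labels give no number of embryos per preparation.

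Hedgehog ligands bind the receptor Ptch1 and lift its block on Smo, and the signal runs through the primary cilium to the Gli transcription factors. Gli2 and Gli3 act first, as activator and repressor, while Gli1, Ptch1 and Hhip are themselves target genes whose transcripts are widely read as a gauge of the pathway, and Hhip protein captures the ligand outside the cell. Notch receptors are cut after they bind Jagged or Delta ligands on a neighbouring cell, and the part set free joins the DNA-binding protein Rbpj to switch on the repressors of the Hes and Hey families. In connective tissue Hedgehog signals come mostly from neighbouring epithelia, and Notch3 is best known from vascular smooth muscle cells and pericytes.

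Signals are given relative to the 75th percentile of their array, so that a value of 1 is a signal at that percentile, and a probe is called dim where the scanner software did not mark it as well above background. Ccng1, which encodes cyclin G1, was dim in DKO MEFs, at least 228-fold below its signal in G1G2WT. Ccng2, which encodes cyclin G2, had signals of 0.091 on the array labelled G2KO, 0.104 on that labelled G2WT, 0.0619 on the DKO array and 0.0806 on the G1G2WT array, and whether its probe lies in the deleted part of the gene is not given in the sources used here, so that it did not check the G2KO label. The log2 ratios of the 24197 probes measured throughout had an SD of 0.535 when the array labelled G2KO was set against G1G2WT, and of 1.005 when both arrays labelled WT were set against each other. Genes that the study lists for G2KO MEFs, Pdgfra among them, ran in the opposite direction under the sample labels. These 2 arrays are therefore called the arrays labelled G2KO and G2WT throughout, and the direction of their comparison is that of the labels only.

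Of the Hedgehog members, the target genes Hhip and Gli1 had the widest ranges and the target gene Ptch1 the narrowest. Hhip and Gli1 were dim in DKO MEFs, Gli2 and Gli3 had their lowest signals there, and the receptor Ptch1 did not follow them. Hhip was also dim on the array labelled G2WT. The 2 Hhip probes are shown, since they lie apart in the gene and were dim on the same 2 arrays, together with the only Gli1 probe. Each line gives the first 30 of the 60 bases of a probe, from its 5′ end, at mm9 positions chr8:82494280-82494339 (minus strand) for the brighter Hhip probe, chr8:82490729-82490788 (minus strand) for the dimmer and chr10:126766967-126767026 (minus strand) for Gli1. Whether a probe falls in coding sequence or a UTR was not determined, because no annotation of that build was used.
Hhip, brighter probe: gcagtagccttcatctgtaggttaatagtc
Hhip, dimmer probe: tatagaattatgaccatgagcatgaaagac
Gli1: ggggctgtatttagtctatgtatgttccag

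Hhip, the secreted and membrane-bound inhibitor of Hedgehog ligands, had signals of 0.507 on the array labelled G2KO, 0.00552 on that labelled G2WT, 0.00414 on the DKO array and 0.193 on the G1G2WT array, by its brighter probe. It was thus well measured on 2 arrays and dim on the other 2, which include 1 of the arrays labelled WT. Against the lowest signal that counted as well above background on the dim array, Hhip was at least 26.4-fold lower in DKO than in G1G2WT (log2 ratio at most -4.72). Going by the labels, the G2KO signal exceeded the G2WT signal at least 70.7-fold (log2 ratio at least 6.14). The G1G2WT array exceeded that labelled G2WT at least 27.0-fold, a difference of the same order between preparations both labelled WT. The dimmer probe had signals of 0.0659, 0.00205, 0.00197 and 0.0254 in that order, with the same 2 arrays dim. Its bounds were smaller, a 3.47-fold or larger deficit in DKO and a 9.20-fold or larger excess on the array labelled G2KO. Between the 2 arrays on which Hhip was measured, that labelled G2KO was 2.62-fold higher than G1G2WT by the brighter probe and 2.60-fold by the dimmer. Because Hhip was dim on both the DKO array and that labelled G2WT, it gave no ratio between them.

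Gli1, the Gli factor that is itself induced by the pathway, had signals of 0.0335 on the array labelled G2KO, 0.0179 on that labelled G2WT, 0.00511 on the DKO array and 0.0272 on the G1G2WT array. The DKO value was dim and the other 3 were within 2-fold of each other. Gli1 was at least 3.72-fold lower in DKO than in G1G2WT, at least 2.45-fold lower than on the array labelled G2WT and at least 4.58-fold lower than on that labelled G2KO. Gli1 was weakly detected throughout, and with normexp background correction, which adds a constant to all signals, the bound on its log2 ratio between DKO and G1G2WT was at most -0.30 in place of at most -1.89.

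Gli2, the main activator of the family, had signals of 0.0839 on the array labelled G2KO, 0.0912 on that labelled G2WT, 0.04 on the DKO array and 0.121 on the G1G2WT array. Its signal was lowest in DKO, 3.02-fold below G1G2WT and 2.28-fold below the array labelled G2WT. With normexp background correction the first of these log2 ratios was -0.89 in place of -1.59, inside 2-fold. Gli3, which is mostly processed to a repressor where ligand is absent, had signals of 3.46, 3.48, 1.72 and 3.63 in the same order. Its 3 arrays other than DKO lay within 1.05-fold of each other, and DKO was 2.11-fold below G1G2WT and 2.03-fold below the array labelled G2WT. Gli3 was the member whose lower signal in DKO moved least, with log2 ratios between -1.16 and -1.02 over the alternative settings, some of which could not change it.

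Ptch1, the receptor and another target of the pathway, had signals of 0.0669 on the array labelled G2KO, 0.0571 on that labelled G2WT, 0.0643 on the DKO array and 0.0722 on the G1G2WT array. Its second probe had signals of 0.0347, 0.0321, 0.0345 and 0.0313. No pair of arrays differed by more than 1.26-fold at either probe, where the scanner software assigns an error of 10.3% to 11.9% to each of these signals. Among the target genes of the pathway, Ptch1 thus differed little between arrays on which Hhip and the weakly detected Gli1 passed from dim to well above background. The signals of Ptch1 were themselves low, at no more than 0.0722.

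**Figure D1:**
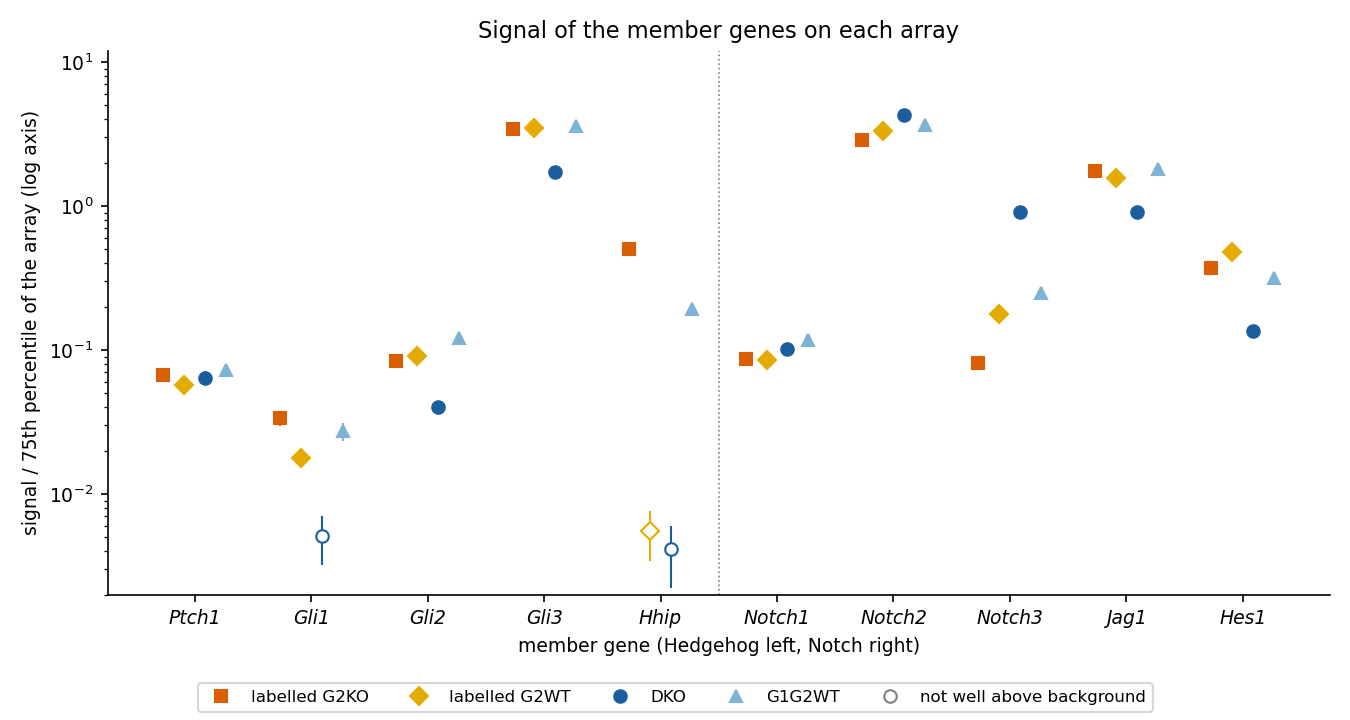
Signal of each member gene, by its brightest probe, over its array's 75th percentile on a log axis, with 1 point per array; bars are the error that the scanner software gives for the spot and open symbols mark dim probes. Hhip lies at 0.507 and 0.193 on 2 arrays and is dim on the DKO array and that labelled G2WT, Gli3 and Jag1 have their lowest point in DKO, and Notch3 has its highest there, at 0.907.

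Of the Notch members, the receptor Notch3 was highest in DKO MEFs and the target gene Hes1 lowest, while Notch1 and Notch2 differed little. The probes of Notch3 and Hes1, the receptor and the target that ran in opposite directions in DKO, are shown by their first 30 of 60 bases, at mm9 positions chr17:32257848-32257907 (minus strand) and chr16:30067820-30067879 (plus strand).
Notch3: gcctaatagaaatgtttttaggctgttttt
Hes1: ttaaaatatcttcctttggggaagtttatt

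Notch3 had signals of 0.0817 on the array labelled G2KO, 0.178 on that labelled G2WT, 0.907 on the DKO array and 0.25 on the G1G2WT array. All 4 values were well above background and DKO stood apart above the rest. Notch3 was 3.63-fold higher in DKO than in G1G2WT, 5.09-fold higher than on the array labelled G2WT and 11.1-fold higher than on that labelled G2KO. Its log2 ratio between DKO and G1G2WT, 1.86, was 1.74 with normexp background correction, 1.94 with quantile normalization and 1.78 without scaling, while the filters could not change it. It was 2.18-fold lower on the array labelled G2KO than on that labelled G2WT, which was inside 2-fold without scaling (log2 ratio -0.63) and with normexp background correction (-0.90). The arrays labelled WT differed 1.40-fold in Notch3, and without scaling their log2 ratio of 0.73 was larger in size than that between the arrays labelled G2KO and G2WT.

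Hes1, a repressor and a common read-out of Notch signalling, had signals of 0.372 on the array labelled G2KO, 0.478 on that labelled G2WT, 0.136 on the DKO array and 0.315 on the G1G2WT array. Its lowest value was that of DKO, 2.32-fold below G1G2WT and 3.51-fold below the array labelled G2WT. The arrays labelled WT differed 1.52-fold. With normexp background correction the log2 ratio between DKO and G1G2WT was -0.94 in place of -1.21, inside 2-fold.

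Jag1, a ligand of the Notch receptors, had signals of 1.76 on the array labelled G2KO, 1.58 on that labelled G2WT, 0.913 on the DKO array and 1.82 on the G1G2WT array. It was lowest in DKO, 1.99-fold below G1G2WT, just short of 2-fold, and 1.73-fold below the array labelled G2WT. The other 3 arrays lay within 1.15-fold of each other.

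Notch1 had signals of 0.0872, 0.085, 0.101 and 0.117 by its brighter probe, in the order labelled G2KO, labelled G2WT, DKO and G1G2WT, and no pair of arrays differed by more than 1.38-fold. The other Notch1 probe gave a different picture, with 0.0212 on the array labelled G2WT and 0.00922 on the DKO array, and dim values of 0.00384 and 0.00721 on the arrays labelled G2KO and G1G2WT. By that probe the Notch1 signal labelled G2KO was below the one labelled G2WT by at least 3.22-fold, which the brighter probe did not show (log2 ratio 0.04). Notch2, another receptor of the family, had signals of 2.90, 3.32, 4.29 and 3.68 by its brighter probe and 0.0353, 0.0476, 0.0563 and 0.0439 by the other. Both probes put DKO highest and the array labelled G2KO lowest, but the extremes differed only 1.48-fold and 1.60-fold. Signals of different probes cannot be set against each other as amounts of RNA. Neither the 2 probes of a gene nor 2 members were ranked by amount of RNA. Brighter and dimmer refer to signal only, and the summed signals of marker lists below weigh most on their brightest probes.

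**Figure D2:**
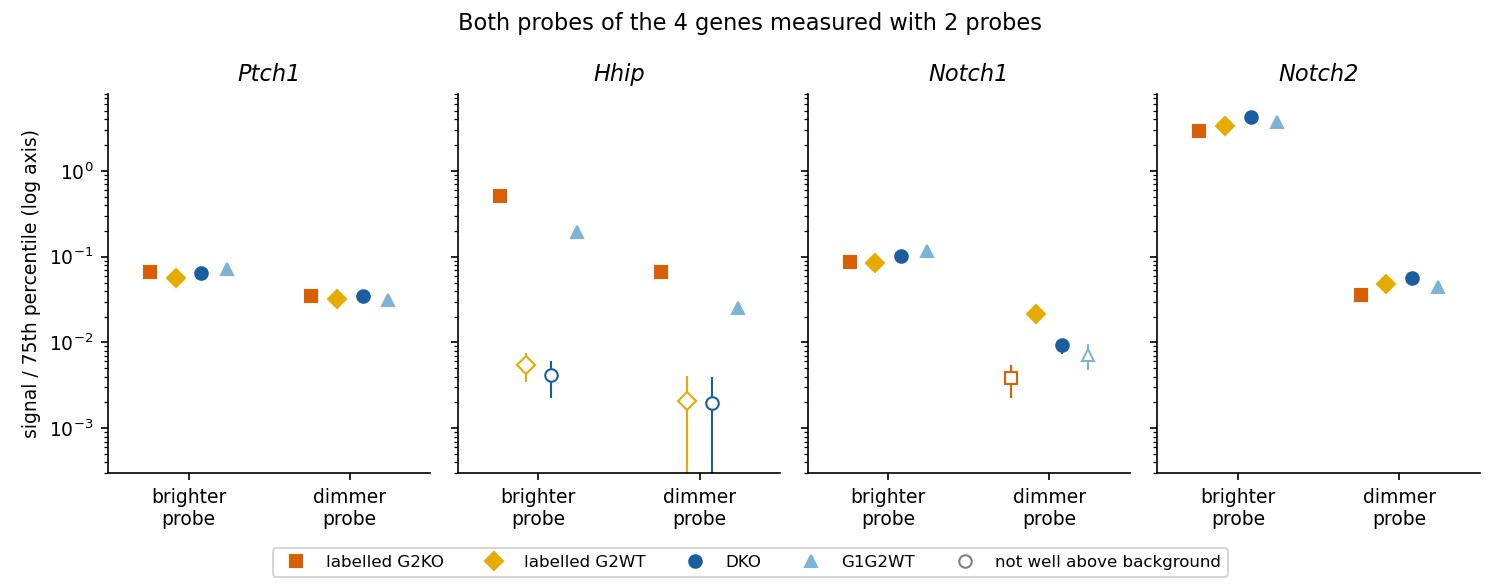
Signal of both probes of Ptch1, Hhip, Notch1 and Notch2 relative to the 75th percentile on a log axis, with 1 point per array, bars for the error of the spot and open symbols for dim probes; bars that run past the lower edge reach close to 0. Both Hhip probes are dim on the same 2 arrays and highest on the array labelled G2KO, whereas the dimmer Notch1 probe is well above background only on the array labelled G2WT, at 0.0212, and in DKO, at 0.00922.

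Set against all probes, the members past a threshold were few at 4-fold, with each gene counted by its brightest probe. Between DKO and G1G2WT, 1 of 10 genes (Hhip) was at least 4-fold lower, where 3.99% of 28378 probes were, and none was 4-fold higher, where 3.93% were. At 2-fold, 5 of 10 genes were lower (Gli1, Gli2, Gli3, Hhip and Hes1), where 9.73% of probes were, and 1 of 10 was higher (Notch3), where 10.6% were. The 4 Hedgehog genes among them are Hhip and the 3 Gli genes. The median log2 ratio was -1.59 over the 5 Hedgehog genes and -0.22 over the 5 Notch genes, against 0.02 over all probes with a ratio.

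Between the arrays labelled G2KO and G2WT, 1 of 10 genes (Hhip) was at least 4-fold higher, where 3.58% of 28273 probes were, and none was 4-fold lower, where 1.92% were. At 2-fold, Hhip was again the only gene higher, where 8.63% of probes were, and Notch3 the only gene lower, where 8.24% were. The dimmer Notch1 probe, which was not counted, was also lower, by at least 3.22-fold. Between the arrays labelled WT, Hhip alone was at least 4-fold higher on the G1G2WT array, where 4.57% of 27466 probes were, and none was lower, where 2.65% were. At 2-fold the shares of probes were 11.8% higher and 9.90% lower, and Hhip was the only gene past it by its brightest probe. The dimmer Notch1 probe was at least 2.07-fold lower on the G1G2WT array. The comparisons of the arrays labelled G2KO and G1G2WT with that labelled G2WT share the latter array. Between the array labelled G2KO and the G1G2WT array, which resembled each other most, Hhip was 2.62-fold higher and Notch3 3.06-fold lower.

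**Figure D3:**
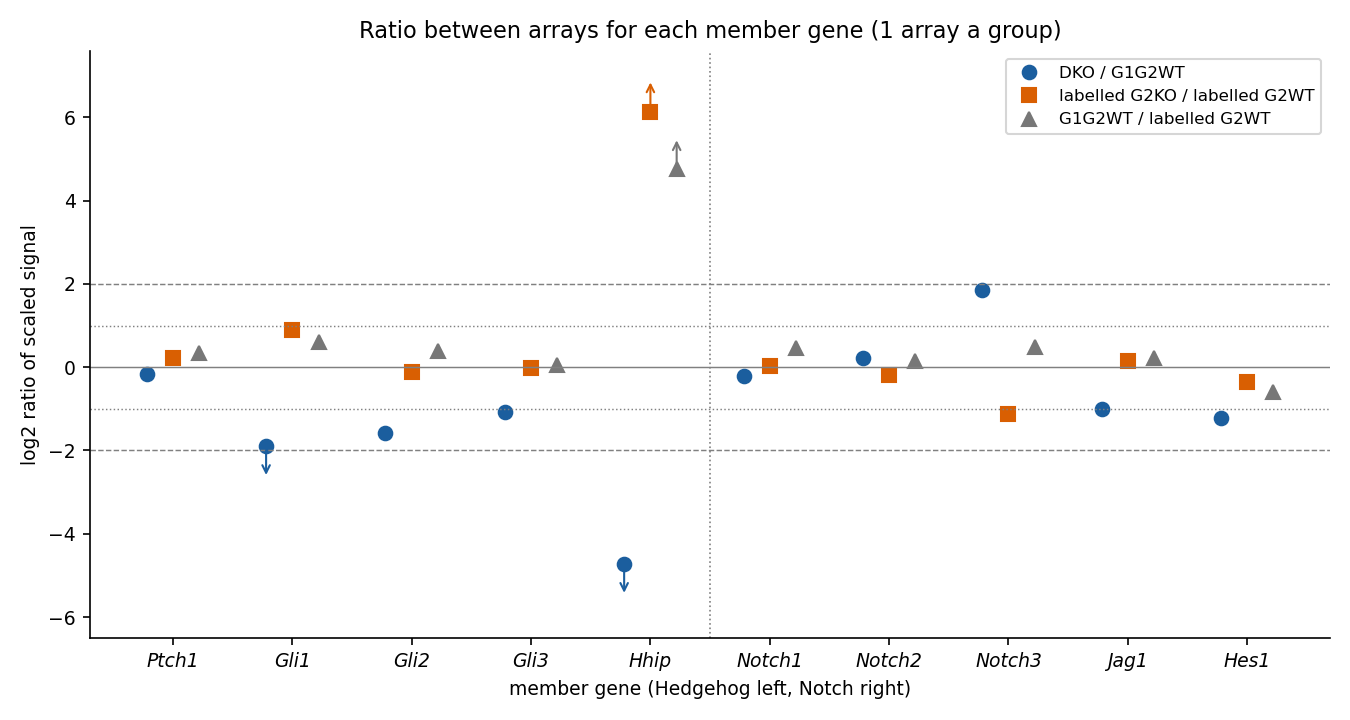
Log2 ratio of scaled signal for each member gene between DKO and G1G2WT, between the arrays labelled G2KO and G2WT, and between both arrays labelled WT; dotted and dashed lines mark 2-fold and 4-fold, and arrows mark bounds where 1 array was dim. Hhip reaches at most -4.72 and at least 6.14 and 4.75, the Gli genes lie between -1.89 and -1.08 in the DKO comparison, and Notch3 lies at 1.86 and -1.13.

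A fit that treats both arrays labelled WT as 1 group leaves 1 residual degree of freedom, and the spread of each single knockout array has to be taken as equal to theirs. The G2WT label was not checked, so that their spread may include a difference of genotype. With limma and Benjamini-Hochberg adjustment over 30344 probes, no probe passed an adjusted p of 0.05 for DKO or for the array labelled G2KO, and 2498 and 475 had an unadjusted p under 0.05. Of the 8 members well above background on all 4 arrays, Notch3 in DKO (log2 difference 2.10, SE 0.51, limma unadjusted p 0.0225, adjusted p 0.451) was the only one under 0.05 unadjusted. The fit uses signals of dim spots as they are, so that it gives no usable difference for Hhip, nor for Gli1 in DKO. For Gli1 on the array labelled G2KO, where no dim spot enters, the log2 difference was 0.60.

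The other genes of the Hedgehog pathway followed no single direction in DKO MEFs. Of 36 further pathway genes on the array, 33 had a ratio between DKO and G1G2WT, and 3 were at least 4-fold higher and 4 at least 4-fold lower, against 3.93% and 3.99% of all probes, with a median log2 ratio of -0.12. Of the ligands, Shh and Ihh were dim on all 4 arrays. Dhh, the desert hedgehog ligand, had signals of 0.0165 on the array labelled G2KO, 0.0115 on that labelled G2WT, 0.0604 on the DKO array and a dim 0.00656 on the G1G2WT array, so that it was highest in DKO, at least 5.89-fold above G1G2WT. Hhat, the enzyme that attaches palmitate to Hedgehog ligands, had signals of 1.57, 0.568, 0.159 and 1.54 in the same order and was lowest in DKO. Scube3, of the secreted proteins that help release the ligand, had signals of 0.862, 0.0173, 0.215 and 1.09, lowest on the array labelled G2WT and next lowest in DKO.

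Of the genes of reception, Smo, the transducer that Ptch1 holds in check, differed by less than 2-fold in all 3 comparisons. The co-receptors Cdon and Gas1 had signals of 1.64 and 2.33 in DKO and 1.94 and 2.64 in G1G2WT, and both were lowest on the array labelled G2WT, at 0.208 and 0.0962. Lrp2 (megalin), an endocytic receptor that can bind Shh, had signals of 0.543 on the array labelled G2KO, 0.857 on that labelled G2WT and 0.547 on the G1G2WT array, and was dim in DKO, at least 74.8-fold below G1G2WT. None of the 11 genes of transduction, among them Sufu, which restrains the Gli proteins, and none of the 17 genes of the primary cilium was past 4-fold in any of the 3 comparisons. In DKO these lists had median log2 ratios of -0.12 and 0.35, against 0.02 over all probes.

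Of the 10 further Hedgehog target genes on the array, the mesenchymal transcription factor Foxl1 had signals of 0.105 on the array labelled G2KO, a dim 0.00676 on that labelled G2WT, 0.00923 on the DKO array and 0.059 on the G1G2WT array, so that its 2 low arrays were those of Hhip. Foxf1a, a related factor of lung and gut mesenchyme, was measured on the other pair, at 0.0924 on the array labelled G2WT and 0.149 in DKO, and was dim on the arrays labelled G2KO and G1G2WT. Tbx2 was measured only in DKO, at 0.122. Mycn was dim on the array labelled G2WT alone, and Ccnd1, which encodes cyclin D1, was highest there, at 37.7 against 8.69 to 10.4 on the other arrays. Between the arrays labelled G2KO and G2WT, 5 of 32 further pathway genes with a ratio were at least 4-fold higher and 1 was lower, against 3.58% and 1.92% of all probes. Between the arrays labelled WT these counts were 5 and 2 of 31, against 4.57% and 2.65%.

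Few of the other Notch genes were past 4-fold in DKO MEFs. Of 49 further Notch genes on the array, 43 had a ratio between DKO and G1G2WT, and 1 was at least 4-fold higher (Notch4) and 3 were at least 4-fold lower (Dlk1, Hey1 and Hey2), against 3.93% and 3.99% of all probes, with a median log2 ratio of -0.08. Notch4, a receptor best known from endothelium, had signals of 0.017 on the array labelled G2KO, 0.0336 on that labelled G2WT, 0.106 on the DKO array and 0.0177 on the G1G2WT array. As with Notch3, DKO was highest, here 5.98-fold above G1G2WT. Dlk1, a non-canonical ligand made by immature mesenchymal cells, had signals of 0.639, 0.11, 0.0184 and 3.53 and was lowest in DKO, 191-fold below G1G2WT.

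Hey1, a target gene of the same class as Hes1, had signals of 0.193 on the array labelled G2KO, 0.469 on that labelled G2WT, 0.0114 on the DKO array and 0.15 on the G1G2WT array. Hey2 had signals of 0.059, 0.0619 and 0.0505 on the 3 arrays other than DKO, where it was dim. Hes1, Hey1 and Hey2 thus all had their lowest value in DKO, where the receptors Notch3 and Notch4 had their highest. The other target genes did not share this order, since Hes6 was 2.81-fold higher in DKO than in G1G2WT, Hes2 and Hes7 were within 2-fold, and Hes3, Hes5, Heyl and Nrarp were dim on both arrays or gave no ratio. Rbpj, the DNA-binding partner of the Notch receptors, had signals of 3.47, 1.67, 1.74 and 6.58, and was 3.78-fold lower in DKO than in G1G2WT but no lower than on the array labelled G2WT. None of the 14 measured genes of receptor processing and 11 of turnover and endocytosis was past 4-fold in any of the 3 comparisons.

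**Figure D4:**
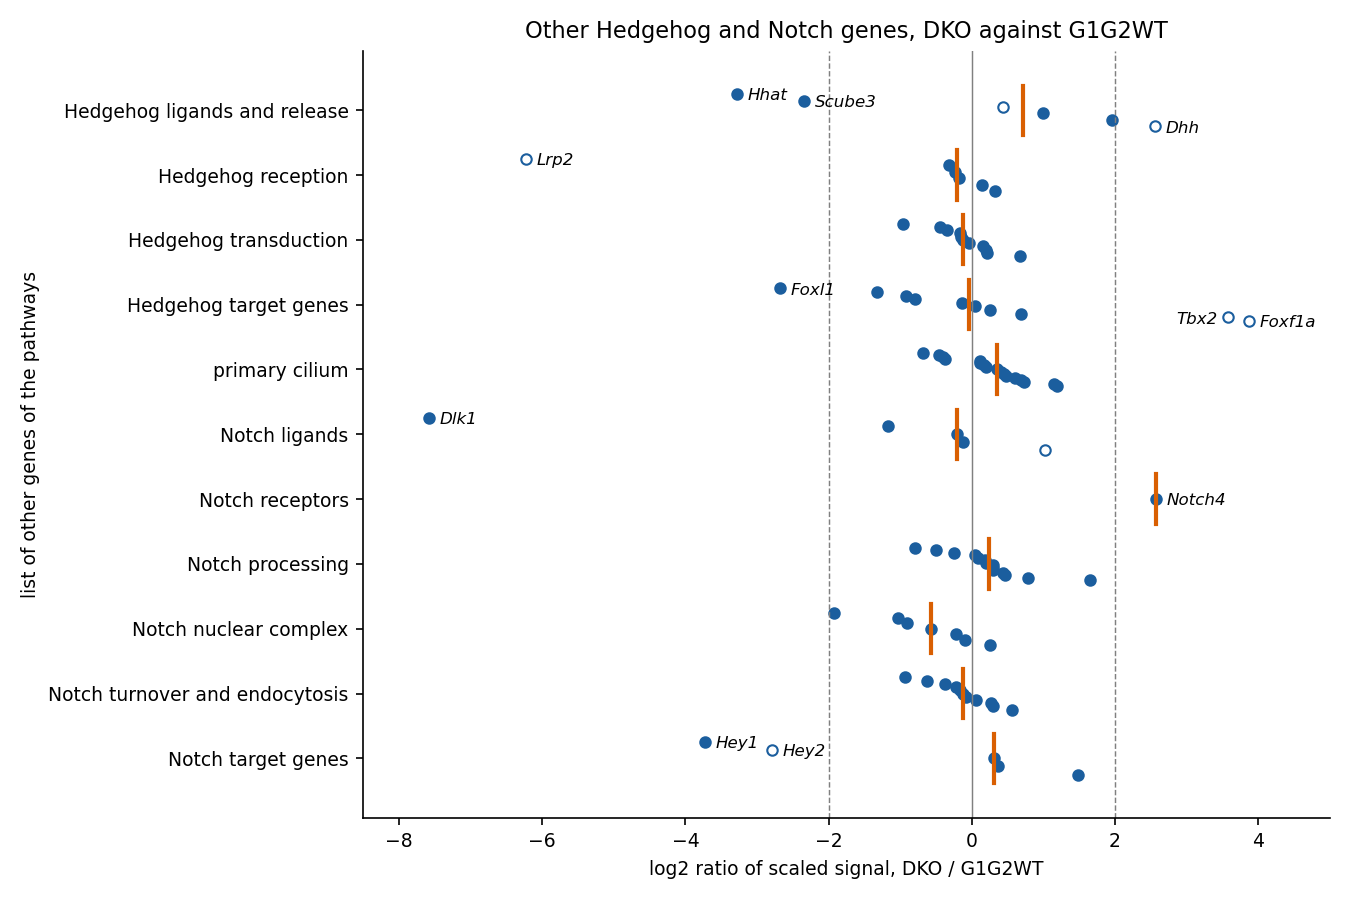
Log2 ratio of scaled signal between DKO and G1G2WT for the other genes of the Hedgehog and Notch pathways, by list, with the median of each list as an orange bar, open symbols for bounds where 1 array was dim, dashed lines at 4-fold and names for genes past 4-fold. Dlk1 lies furthest below 0, at -7.58, followed by Lrp2, Hey1 and Hhat, and Foxf1a, Tbx2, Notch4 and Dhh lie past 4-fold above.

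**Figure D5:**
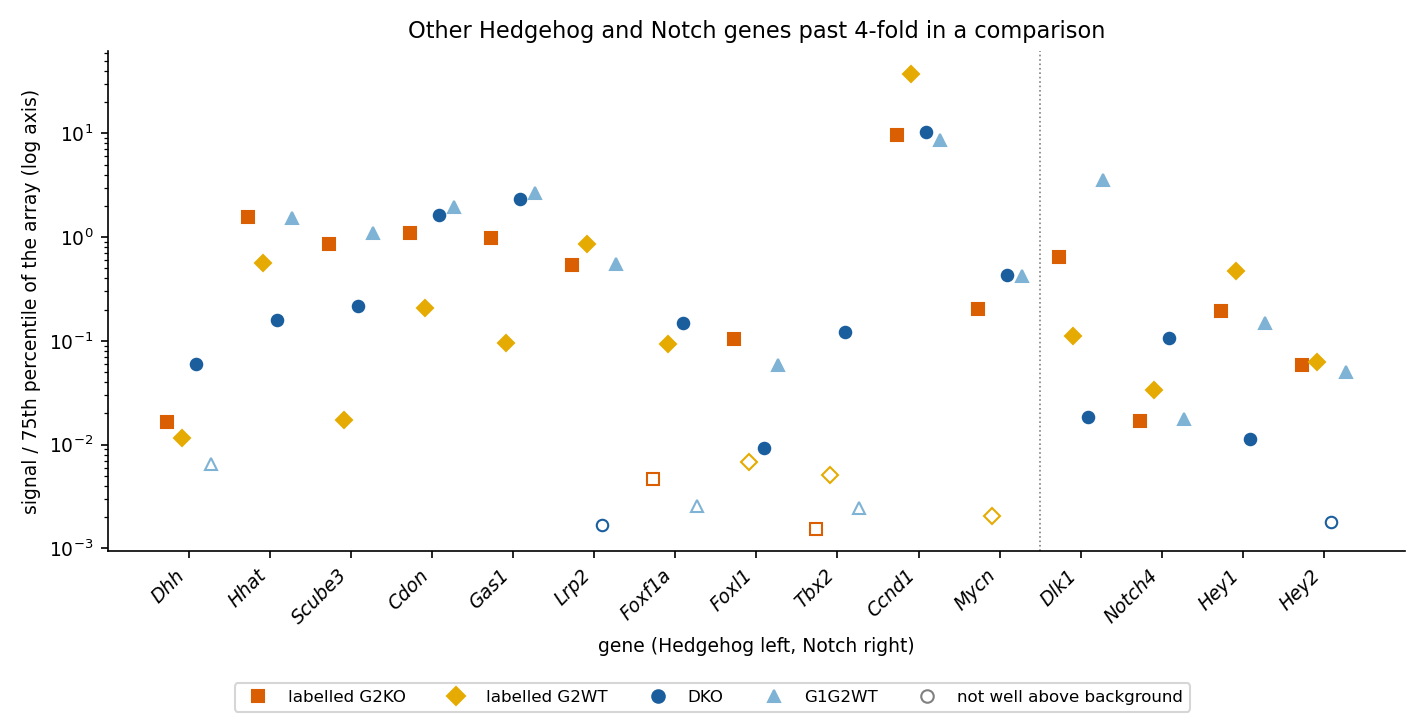
Signal of the other pathway genes past 4-fold in at least 1 of the 3 comparisons, over the array's 75th percentile on a log axis, with 1 point per array and open symbols for dim probes. Scube3, Cdon, Gas1 and Mycn are lowest on the array labelled G2WT, Lrp2, Dlk1, Hey1 and Hey2 are lowest in DKO, and Dhh, Tbx2 and Notch4 are highest in DKO.

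These are bulk samples, in which fewer cells of a type and less RNA per cell cannot be told apart, and marker genes of several cell types moved between arrays together with the members. All 10 mesothelial markers were well above background in DKO, with a summed signal of 147 against 0.651 to 1.63 on the other arrays, where the defining markers Wt1, Upk1b, Upk3b and Lrrn4 were dim. Of the sum in DKO, Msln gave 100 and Krt18 24.7. Cldn15 went the other way, at 0.0413 in DKO against 0.0434 to 0.0729 elsewhere. Krt19 was at 1.19 in DKO but also at 0.524 on the array labelled G2KO. All 13 fibroblast markers were well above background in DKO, with a summed signal of 397 against 292 to 506 elsewhere. Within that list Pdgfra had signals of 1.75 on the array labelled G2KO and 5.22 on the G1G2WT array, but 0.0296 in DKO, and was dim on the array labelled G2WT, so that its high and low arrays were those of Hhip. Thy1 and Postn had the same 2 low arrays, at 0.461 and 0.566 on the array labelled G2WT and 3.42 and 0.116 in DKO, against 53.1 and 10.9 on the array labelled G2KO and 61.5 and 21.6 on the G1G2WT array. Col3a1, Prrx1 and Pdgfrb also had their lower signals on the array labelled G2WT and in DKO. These were 1.77, 1.15 and 5.44 on the array labelled G2WT and 8.99, 2.03 and 0.957 in DKO. On the array labelled G2KO they were at 24.4, 4.29 and 8.04, and on the G1G2WT array higher still. Not all fibroblast markers shared this pattern. Dcn was highest in DKO, at 49.0 against 0.0722 to 2.95 on the other arrays, and Col1a1, Fn1, Vim and Twist1 differed by less than 2-fold across the arrays.

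Smooth muscle and pericyte markers, the cells for which Notch3 is best known, had their lowest summed signal in DKO, where Notch3 was highest: 42.7 against 226 to 363 on the other arrays, mostly from Acta2 and Tagln. The pericyte marker Cspg4 was 0.039 in DKO against 0.969 to 11.7 elsewhere. Cnn1 was not lowest in DKO, at 1.41 against 1.25 on the G1G2WT array, and was at 1.94 and 7.22 on the arrays labelled G2KO and G2WT. Myh11, Des and Rgs5 of the same list ran the other way at low signals, with 0.0289, 0.00943 and 0.0162 in DKO, so that all 7 markers were well above background in DKO and only 4 or 5 on the other arrays. The array labelled G2WT stood out in neural progenitor markers, with a summed signal of 30.8 against 2.85 to 4.58, of which 28.0 was Nes, and Sox2 was at 2.37 there and dim on the other 3 arrays. Fabp7 was also highest there, at 0.0705 against 0.0214 on the array labelled G2KO, and was dim on the DKO and G1G2WT arrays. Pax3 of that list was lowest on the array labelled G2WT, at 0.264 against 1.16 to 3.29, and Sox1 was not raised, at 0.105 against 0.113 to 0.196. Pax6 was dim on every array but that labelled G2KO. Endothelial markers summed to between 7.77 and 11.6, mostly from Kdr and Flt1, and the defining endothelial markers Tie1 and Emcn were dim on all 4 arrays. Macrophage markers summed to between 12.3 and 23.3, mostly from Itgam, which was highest on the G1G2WT array, at 22.2. Ptprc and Emr1 of that list were low on every array, at 0.0188 to 0.0368 and 0.0148 to 0.0218. Lyz2 was dim on the arrays labelled G2KO and G2WT, and Cd68 on the G1G2WT array. Cd14 of that list was highest in DKO, at 2.88 against 0.348 to 0.685. The part of these differences in the signals of the members was not tested.

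Of the members, only Notch3 was both well above background on all 4 arrays and spread over at least 2 on the log2 scale (range 3.47). The 3 genes whose centred log2 signals lay nearest to it over the 4 arrays were LOC552880 (root mean square difference 0.171), Mylk, which encodes myosin light chain kinase (0.184), and Cyp1b1, a cytochrome P450 (0.205). In all, 104 of 24196 probes lay within 0.5 of Notch3, and likeness over only 4 arrays was not tested.

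Promoter sequence was looked up for the members from 250 bases before to 50 after the start of transcription (RefSeq, GRCm38.p6), and 8 of the 10 were found, Gli1 and Hes1 being the others. The motif of the Gli proteins, GACCACCCA on either strand, was in none of the 8 windows and in 0.253% of 32851 promoters. The core of the Rbpj motif, TGGGAA on either strand, was in none of the 8 and in 25.6% of promoters. The N box bound by Hes proteins, CACNAG on either strand, was in those of Ptch1, Notch1, Notch2 and Notch3 and in 42.5% of promoters. Positions in these windows are on another build than the probes and were not set against them.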

How the data were processed

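Total RNA of 4 MEF preparations was hybridised to 4 single-color Agilent arrays on 1 slide, and the deposited intensity values are the processed signals that the authors obtained with Agilent Feature Extraction, background-subtracted and not scaled between arrays. The file headers name version 10.7.3.1 and the submitters' processing notes 10.5.1.1. The methods describe dye swaps for G2KO, whereas the labels and files hold 1 color. The deposited value table holds the same signals. Arrays give no depth, and 1 array per genotype limits the precision.

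Control and outlier spots were left out, spots of a probe averaged, and log2 signals taken relative to the 75th percentile of each array. Ratios needed a probe that was not dim on both arrays. For a dim array the lowest signal marked well above background there was used, or the signal of the probe if that was larger, so that the ratio is a bound ("at least"). A gene is represented by its probe with the highest mean log2 signal. Ratios past 4-fold were counted, with 2-fold as an alternative, and limma 3.58.1 (R 4.3.3) compared each knockout array with both arrays labelled WT as 1 group. Python 3.11.15, numpy 2.4.6, pandas 2.3.3 and matplotlib 3.10.9 were used, and the steps were tested on simulated data. Named genes are all members, all other pathway genes past 4-fold, and up to 3 genes most like a member, and further genes were named after their values were seen. Alternatives were normexp background correction, quantile, median and no scaling, the deposited table, stricter and no filters, the median over probes and other WT arrays. The members and gene lists were chosen with earlier results of these data known. Promoters are those of RefSeq (GRCm38.p6).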

Additional observations from a re-analysis of the deposited data

Results flagged for a closer look

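Hhip and Notch3 were past 2-fold in opposite directions in the 2 knockout comparisons, each on 1 array per group, and the difference between the comparisons was not tested. For Hhip the log2 ratio was at most -4.72 in DKO against G1G2WT and at least 6.14 between the arrays labelled G2KO and G2WT. For Notch3 it was 1.86 and -1.13. The direction of the second comparison is that of the labels. If the labels G2KO and G2WT were exchanged, Hhip would be lower and Notch3 higher in both comparisons.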

How the results depend on the processing

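Each knockout and each of its WT controls is 1 array, and leaving out a WT array is given below as the use of the other. No paired analysis was possible because each group holds 1 array. The number of members past 4-fold between DKO and G1G2WT, 1 in the main setting, was 2 with quantile normalization, 0 with probes well above background on all 4 arrays, 2 without filter and floor, 6 at 2-fold, and 2 against the mean of both arrays labelled WT. With the array labelled G2WT in place of G1G2WT it was 1, but this was Notch3, since Hhip was dim on both. Between the arrays labelled G2KO and G2WT the number, 1, was 0 with probes well above background on all 4 arrays, 2 at 2-fold and 0 against G1G2WT, and between the arrays labelled WT it was 0 with probes well above background on all 4 arrays. limma called no probe at an adjusted p of 0.05 in any setting, and 2498 (DKO) and 475 (G2KO) had an unadjusted p under 0.05. Of 273 alternative log2 ratios of members, 263 moved by less than 1.005, the SD between the arrays labelled WT, and 10 moved by more, 9 of them of Hhip. Because the G2WT label was not checked, that SD may include a difference of genotype. Many of the 273 could not move or were repeats. The filters and the median over probes cannot change a gene with 1 well-measured probe, and the deposited table repeats the unscaled signals. A ratio could also fall inside 2-fold while moving by less than 1.005. No member past 4-fold changed direction. Hhip ranged from -5.54 to -2.13 in DKO, from 1.39 to 6.64 between the arrays labelled G2KO and G2WT and from 2.29 to 5.13 between the arrays labelled WT. Without scaling, the median of all probes was shifted by 0.50 between the arrays labelled G2KO and G2WT and by 0.25 between the arrays labelled WT, and 81.0% and 72.9% of probes past 4-fold were higher in place of 65.1% and 63.3%. Low signals such as those of Gli1 are limited by the background.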
